A study of Mus musculus with 8 samples.

Results

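The chemokine genes Ccl3, Ccl4, Ccl5, Ccl6 and Ccl9 and the receptor gene Ccr1 were followed in CD11b+ cells from the ascites of ID8 tumor-bearing mice, after treatment with a neutralizing antibody against the cytokine LIF. The members were these 6 genes, each read from the array features that carry its symbol and no other, out of 22180 genes measured in all, and each had 1 feature. ID8 cells come from mouse ovarian surface epithelium, form tumors on the peritoneum and give rise to ascites. Female C57BL/6 mice were inoculated at 8 weeks of age. The anti-LIF group held 4 mice, numbered 5 to 8, treated from day 12 for 25 days, and the control group held 4 mice, numbered 1 to 4. The labels describe the controls as untreated, whereas the methods describe a control IgG. All 8 mice carried the tumor, so no group shows these cells in a healthy peritoneum. Each mouse gave RNA for a single Affymetrix Mouse Gene 2.1 ST array, and all values are Robust-Microarray Average (RMA) log2 intensities, on which a difference of 1 is a doubling. The CD11b beads select cells with the integrin subunit that Itgam encodes, which macrophages, monocytes and neutrophils carry. Itgam stood at 8.49 ± 0.22 in anti-LIF mice and 8.67 ± 0.36 in control mice (SD, n = 4 each), with an adjusted p of 0.59 from limma.

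CC chemokines are small secreted proteins that guide leukocytes through G protein-coupled receptors. CCL3 (MIP-1α) and CCL4 (MIP-1β) are made by activated macrophages and attract monocytes, T cells and NK cells, and CCR1 is a receptor for CCL3. CCL5 (RANTES) is made by T cells, NK cells and macrophages and binds CCR1 and CCR3, among others. CCL6 and CCL9 (MIP-1γ) are ligands of CCR1 that mouse macrophages and other myeloid cells produce in the absence of an acute stimulus. The 5 ligand genes lie together on mouse chromosome 11, in the order Ccl5, Ccl9, Ccl6, Ccl3 and Ccl4, and Ccr1 lies on chromosome 9.

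The promoters of the 3 ligand genes that fell after anti-LIF treatment, Ccl3, Ccl9 and Ccl6, are shown because these are the members that passed the test. Each runs from 250 bases before to 50 bases after the transcription start, 5′ to 3′ on the minus strand, which all 3 genes use, in RefSeq's annotation of GRCm38.p6. The promoter table held 4 of the 6 members. Capitals mark matches on either strand to any of 7 short motifs: kappaB (GGG, any 5 bases, then CC), AP-1 (TGANTCA), STAT or GAS (TTCNNNGAA), ISRE (GAAA, any 2 bases, then GAAA), PU.1 (GAGGAA), C/EBP (TTGCNNAA) and the TATA box (TATAAA).
Ccl3, chr11:83649329-83649628: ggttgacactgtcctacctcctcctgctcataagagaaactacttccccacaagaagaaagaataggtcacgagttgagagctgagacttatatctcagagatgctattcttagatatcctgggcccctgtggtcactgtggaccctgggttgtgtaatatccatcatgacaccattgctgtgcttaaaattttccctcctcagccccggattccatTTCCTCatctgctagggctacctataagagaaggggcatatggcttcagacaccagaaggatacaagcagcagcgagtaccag
Ccl9, chr11:83578587-83578886: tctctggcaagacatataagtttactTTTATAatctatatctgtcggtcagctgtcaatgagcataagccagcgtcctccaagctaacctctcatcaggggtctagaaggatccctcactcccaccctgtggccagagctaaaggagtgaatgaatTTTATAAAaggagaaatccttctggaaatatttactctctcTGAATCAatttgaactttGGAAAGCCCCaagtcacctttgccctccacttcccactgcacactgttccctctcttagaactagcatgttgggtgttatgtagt
Ccl6, chr11:83593038-83593337: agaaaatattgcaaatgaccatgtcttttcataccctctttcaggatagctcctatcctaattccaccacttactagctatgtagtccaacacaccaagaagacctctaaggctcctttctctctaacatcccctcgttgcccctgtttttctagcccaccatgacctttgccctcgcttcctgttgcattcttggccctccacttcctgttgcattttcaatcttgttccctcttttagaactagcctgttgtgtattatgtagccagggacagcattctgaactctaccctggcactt

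The Ccl3 window held 1 match, a PU.1 motif on the opposite strand, at bases -33 to -28 from the start, where -1 is the last base before it. PU.1 motifs occurred in 28.3% of the 32851 promoters of the table. The Ccl9 window held a kappaB match on the opposite strand at bases -35 to -26 and an AP-1 match at bases -53 to -47, against 50.8% and 7.81% of all promoters. It also held 3 TATA box matches, 2 of which overlap at bases -94 to -87, and this motif was found in 13.6% of promoters. The Ccl6 window held none of the 7 motifs, which says only that these letters do not occur there. STAT or GAS, ISRE and C/EBP motifs, found in 8.3%, 3.44% and 10.8% of promoters, matched in none of the 3 windows. Aligned without counting gaps, the Ccl6 and Ccl9 windows were 71.1% identical over 239 bases and shared a run of 13 bases. Ccl3 was 62.5% identical to Ccl6 over 256 bases and 59.3% identical to Ccl9 over 258 bases, and shared no run above 8 bases with either. For comparison, the window of Ccr1, on chromosome 9, was 59.8% identical to Ccl3, 64.3% to Ccl9 and 59.2% to Ccl6. These matches are descriptions of the sequence, and no factor was measured at these sites.

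Ccl3, Ccl9 and Ccl6 fell in CD11b+ cells of anti-LIF-treated mice, Ccl4 and Ccr1 were lower on average without passing the test, and Ccl5 did not follow them. Of the 6 members, 3 were called lower and none higher by limma at the study's threshold, an adjusted p of 0.1. At an unadjusted p under 0.05, 5 were lower and 0 higher. Of all 22180 genes, 11% were called lower and 5.79% higher. All 6 members lay above the median gene, and of the 11090 genes above it 20.6% were called lower. The median log2 difference of the 6 members was -0.95, against 0.03 over all genes. In RNA from a mixed cell preparation, fewer cells of a type and less RNA per cell cannot be told apart.

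**Figure D1:**
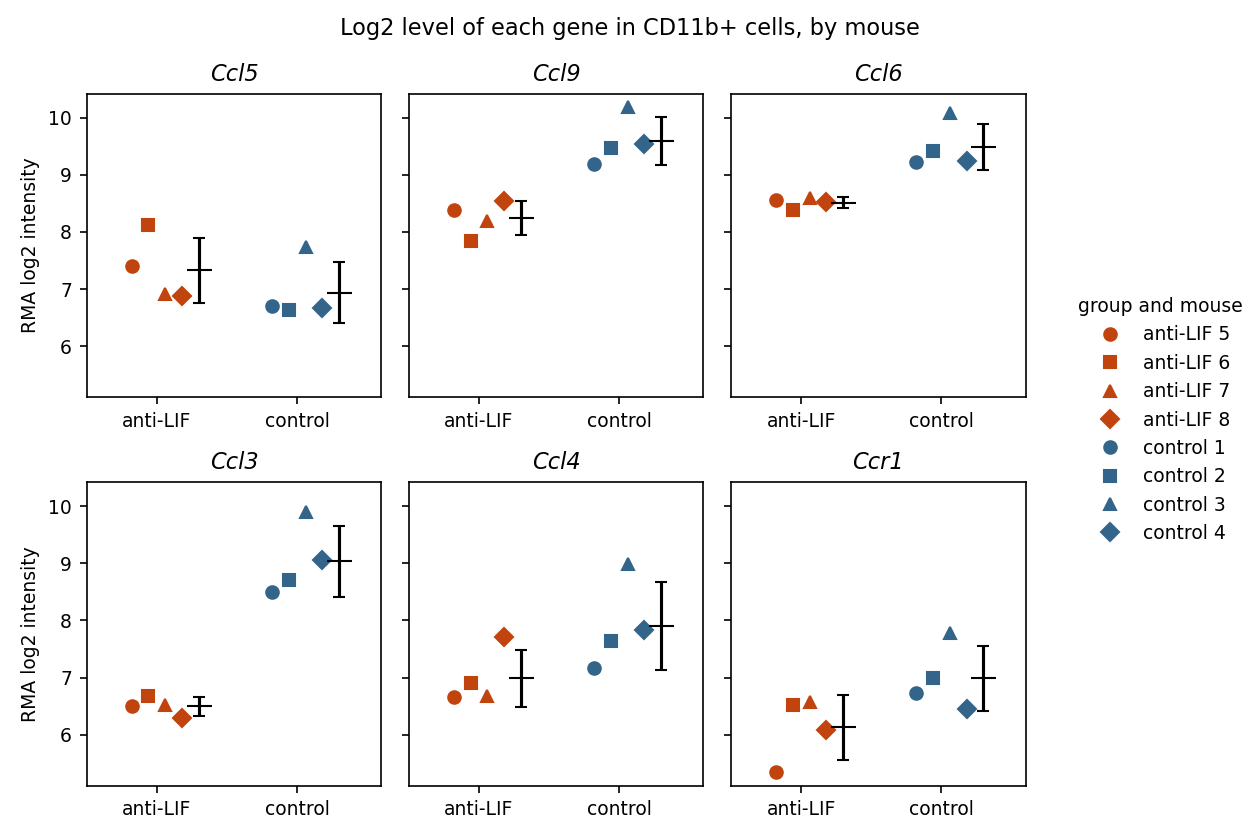
RMA log2 intensity of each of the 6 genes (vertical axis, same scale in all panels) in 4 anti-LIF and 4 control mice, with a point for each mouse and the mean ± SD beside the points. The anti-LIF points lie below all control points for Ccl9, Ccl6 and Ccl3, and the groups overlap for Ccl5, Ccl4 and Ccr1.

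Ccl3 showed the largest difference among the 6 genes. It was at 6.51, 6.69, 6.52 and 6.29 in anti-LIF mice 5 to 8, against 8.50, 8.70, 9.90 and 9.05 in control mice 1 to 4. The lowest control mouse was 1.81 log2 units above the highest anti-LIF mouse, and the anti-LIF mice lay close together while the control mice were spread. The log2 difference was -2.53 (standard error 0.25, adjusted p = 6.6e-04 from limma), which is 5.79-fold lower. Only 0.0225% of all genes had a more negative difference. The exact two-sided permutation test gave p = 0.0286, the lowest value possible with 4 mice in each group.

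Ccl4, the gene of the second classical MIP-1 protein and the direct neighbor of Ccl3 on the chromosome, was at 6.66, 6.90, 6.68 and 7.71 in anti-LIF mice 5 to 8, against 7.17, 7.64, 8.98 and 7.84 in control mice 1 to 4. Anti-LIF mouse 8 lay within the control range, so the groups overlapped, and the other 3 treated mice were below all controls. The log2 difference was -0.92 (95% interval -1.68 to -0.16, adjusted p = 0.12 from limma; exact permutation p = 0.0857). It passed the threshold without anti-LIF mouse 8 (-1.16, adjusted p = 0.071) or without control mouse 1 (-1.17, adjusted p = 0.055), and it was -0.56 (adjusted p = 0.23) without control mouse 3. In the RefSeq annotation the span of Ccl4 overlaps that of Ccl3. Whether the array features of either gene pick up RNA of the other was not tested.

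Ccl9 and Ccl6, the pair of CCR1 ligand genes between Ccl5 and Ccl3, both fell. Ccl9 was at 8.39, 7.84, 8.19 and 8.54 in anti-LIF mice 5 to 8, against 9.19, 9.46, 10.18 and 9.54 in control mice 1 to 4. The groups did not overlap, with a gap of 0.65, and the log2 difference was -1.35 (standard error 0.22, adjusted p = 0.0045 from limma), or 2.55-fold lower. Ccl6 was at 8.56, 8.38, 8.60 and 8.52 in anti-LIF mice, against 9.22, 9.41, 10.08 and 9.25 in control mice. Its treated mice were the most alike of any member (SD 0.093, n = 4), none reached the lowest control, and the log2 difference was -0.97 (standard error 0.18, adjusted p = 0.0089 from limma), or 1.97-fold lower. The groups of 3 of the 6 members did not overlap, all 3 with the anti-LIF mice lower. Of all genes 18.5% did not overlap, 11.9% with the anti-LIF mice lower and 6.53% with them higher.

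Ccl5, at the other end of the ligand genes, did not fall. It was at 7.40, 8.11, 6.92 and 6.89 in anti-LIF mice 5 to 8, against 6.71, 6.63, 7.74 and 6.67 in control mice 1 to 4. All 4 treated mice were above 3 of the controls, and control mouse 3 was above every treated mouse except mouse 6. The log2 difference was 0.39 (95% interval -0.27 to 1.06, adjusted p = 0.44 from limma; exact permutation p = 0.371). It was 0.66 (adjusted p = 0.17) without control mouse 3 and 0.13 (adjusted p = 0.80) without anti-LIF mouse 6, so each of these mice moves the value by more than 1.5 times. T and NK cells also make Ccl5, and 3 of their 16 measured marker genes rose, 1 fell and the other 12 were not called. The mean log2 level of these markers was 4.06 to 4.53 in anti-LIF mice, highest in mouse 6, against 3.89 to 3.99 in control mice. At an unadjusted p under 0.05 from limma, 9 of the 16 were higher and 1 was lower, with a median log2 difference of 0.43. Klrd1, the only marker called lower, had a log2 difference of -0.98 (adjusted p = 0.043 from limma). Nkg7 had the largest change of those called higher, 0.85 (adjusted p = 0.0096). Of the 16 markers, 13 lay below the median gene. The part of T and NK cells in the Ccl5 values was not tested.

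Ccr1, the receptor gene, was at 5.35, 6.52, 6.57 and 6.08 in anti-LIF mice 5 to 8, against 6.74, 6.99, 7.78 and 6.45 in control mice 1 to 4. Control mouse 4 lay below anti-LIF mice 6 and 7, and mouse 5 was the lowest of all. The log2 difference was -0.86 (95% interval -1.54 to -0.19), and the adjusted p of 0.1002 from limma was just outside the threshold (exact permutation p = 0.0857). The difference was -1.04 (adjusted p = 0.075) without control mouse 4, -0.99 (adjusted p = 0.093) without anti-LIF mouse 6, and -0.60 without either anti-LIF mouse 5 (adjusted p = 0.21) or control mouse 3 (adjusted p = 0.23). Of the members, Ccr1 and Ccl4 are therefore the genes whose call turned on single mice.

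To ask whether the members changed by the same amount, the log2 difference between each 2 of them was taken within every array and compared between the groups, for all 15 pairs. The groups did not overlap in 8 pairs (exact two-sided permutation p = 0.0286 each), and 10 pairs had a Benjamini-Hochberg adjusted p under the threshold of 0.1. Ccl3 fell more than each of the other 5 members. It fell 1.61 more than its neighbor Ccl4 (standard error 0.32, exact permutation p = 0.0286, adjusted p = 0.054 over the pairs), with Ccl3 minus Ccl4 at -0.16, -0.22, -0.16 and -1.42 in anti-LIF mice 5 to 8, against 1.33, 1.06, 0.91 and 1.21 in control mice 1 to 4. The groups did not overlap in this difference. These values compare the features of different genes, so only their change between the groups can be read. The excess over Ccl9 was 1.18 (standard error 0.25) and that over Ccl6 was 1.56 (standard error 0.19), both with exact permutation p = 0.0286 and adjusted p = 0.054 over the pairs.

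Ccl5 differed from every other member in the opposite direction. Ccl3 minus Ccl5 was at -0.90, -1.43, -0.40 and -0.60 in anti-LIF mice 5 to 8, against 1.79, 2.07, 2.16 and 2.38 in control mice 1 to 4, a difference of -2.93 (standard error 0.25) and the largest of the 15 pairs (exact permutation p = 0.0286, adjusted p = 0.054). This pair was at -2.94 without control mouse 2 and -2.83 without control mouse 4, each with an exact permutation adjusted p of 0.107, outside the threshold of 0.1. Its groups still did not overlap without either mouse, and the adjusted p also depends on the values of the other pairs. The difference from Ccl5 was -1.74 for Ccl9, -1.37 for Ccl6, -1.31 for Ccl4 and -1.25 for Ccr1, and the groups overlapped only for Ccl4 (exact permutation p = 0.0571, adjusted p = 0.086). Ccl4, Ccl6 and Ccr1 were not told apart from each other. Ccl6 minus Ccl4 changed by -0.05 (standard error 0.33), Ccl4 minus Ccr1 by -0.06 (standard error 0.43) and Ccl6 minus Ccr1 by -0.11 (standard error 0.32). The standard errors bound how finely these genes could be compared, and the values do not show that they changed alike.

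**Figure D2:**
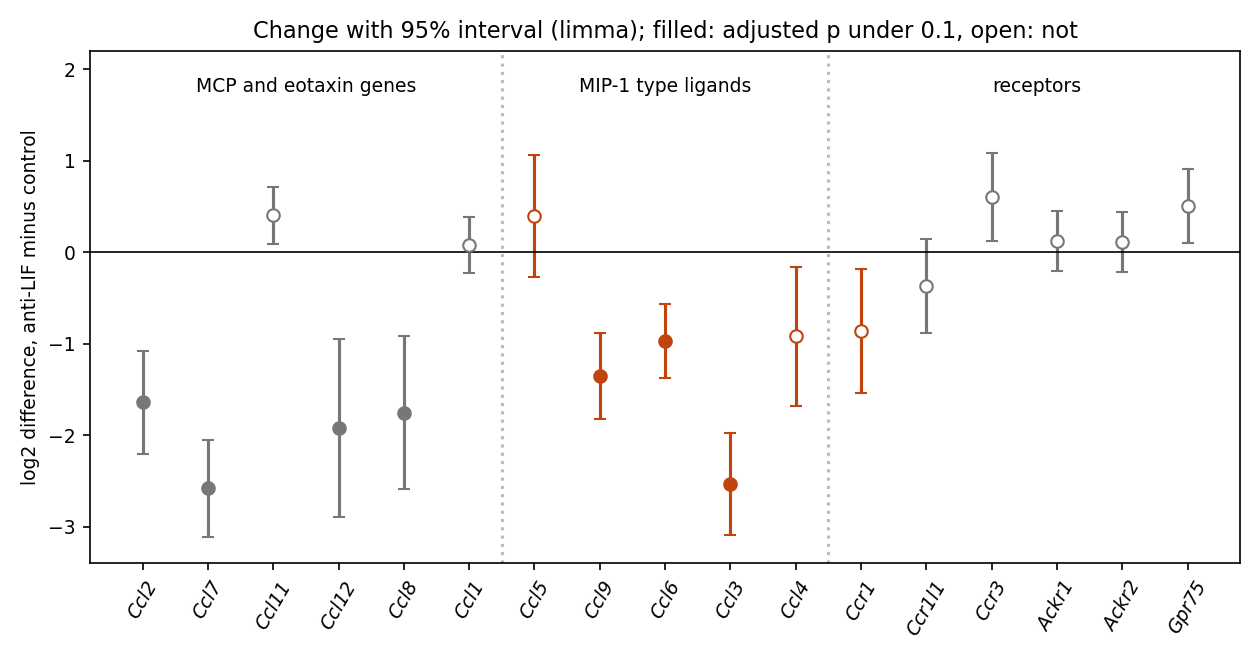
Log2 difference between anti-LIF and control mice (vertical axis, with 95% intervals from limma, n = 4 each) for the chromosome 11 chemokine genes in chromosome order and for receptor genes, with the 6 members in red and calls at an adjusted p under 0.1 filled. Ccl3 and Ccl7 reach -2.53 and -2.58, while Ccl11, Ccl1 and Ccl5 lie at or above 0.

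The same chromosome carries a second group of CC chemokine genes, made up of Ccl1 and of genes of the MCP and eotaxin type, whose products attract monocytes and eosinophils. Of these 6 genes, 4 fell, none rose and 2 did not pass the test, with a median log2 difference of -1.70. Over all genes 11% were called lower and 5.79% higher, and 20.6% of those above the median gene were called lower. Ccl7, an MCP gene, fell by 2.58 on the log2 scale (adjusted p = 5.8e-04 from limma), close to Ccl3. The MCP genes Ccl12, Ccl8 and Ccl2 had log2 differences of -1.92, -1.75 and -1.64 (adjusted p = 0.020, 0.016 and 0.0040). The eotaxin gene Ccl11 stood at 4.92 ± 0.05 in anti-LIF mice and 4.52 ± 0.26 in control mice (SD, n = 4 each, adjusted p = 0.1001 from limma). This was just outside the threshold, and for Ccl11 the anti-LIF mice lay above all control mice (exact permutation p = 0.0286). Ccl1, the only gene of the 6 below the median gene, stood at 3.64 ± 0.17 and 3.56 ± 0.17 (adjusted p = 0.77). Of the 11 measured chemokine genes of both groups, 7 were thus lower, and those that were not included genes on either side of genes that fell, Ccl11 between Ccl7 and Ccl12, and Ccl5 and Ccl4 at the ends of the MIP-1 type genes.

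Genes around the ligands were taken from the RefSeq order, 5 named protein-coding genes to either side and those in between, and 10 of these 14 were measured. Of the 10, 1 was lower and none was higher, against 11% and 5.79% of all genes. Their median log2 difference was -0.0002, and 5 of the 10 lay below the median gene, where low levels cannot be told from background. The lower one was Taf15, which encodes an RNA-binding protein and lies before Ccl5, with -0.49 (adjusted p = 0.033 from limma). The noncoding RNA gene E230016K23Rik, which starts between Ccl9 and Ccl6 and whose annotated span covers Ccl6, was at 4.44 ± 0.39 in anti-LIF mice and 4.44 ± 0.25 in control mice (SD, n = 4 each, adjusted p = 1.0). Wfdc17, the nearest measured gene after Ccl4 and a small secreted protein gene of macrophages, was at 9.52 ± 0.20 in anti-LIF mice and 9.81 ± 0.63 in control mice (adjusted p = 0.53). The other neighbors ran from -0.35 to 0.33.

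**Figure D3:**
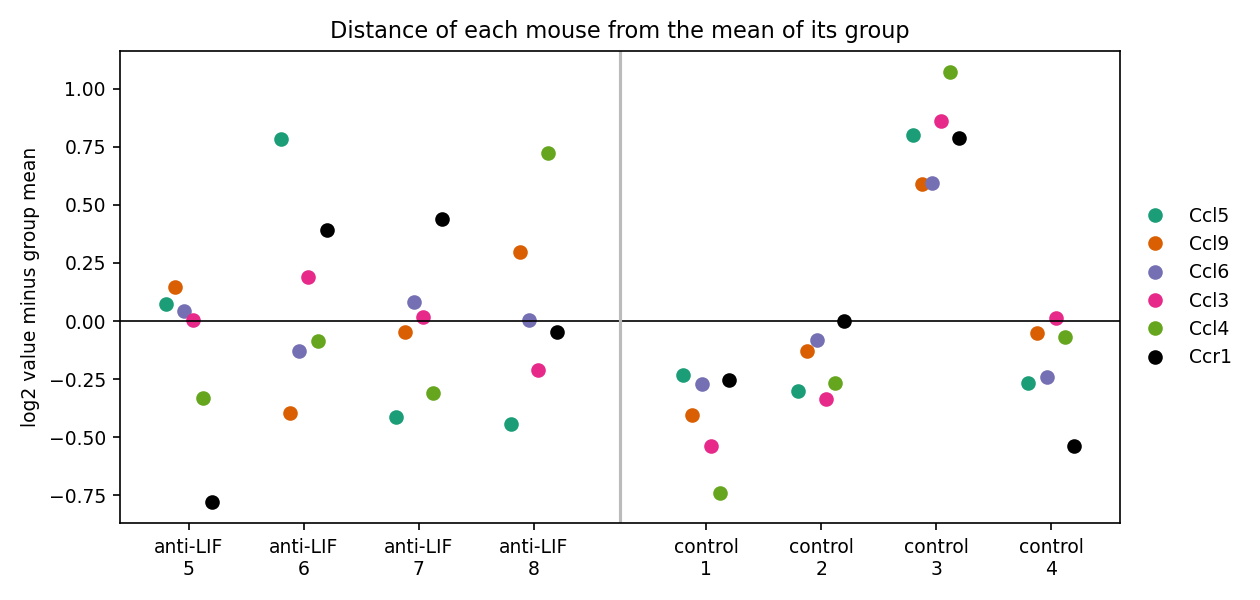
Log2 value of each of the 6 genes minus the mean of its group (vertical axis) in the 4 anti-LIF and the 4 control mice. All 6 genes of control mouse 3 lie 0.59 to 1.07 above the control mean, whereas no anti-LIF mouse is high or low for all 6.

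Within the control group the 6 genes were highest in the same mouse. Control mouse 3 was the highest control for 6 of 6 members, at 0.59 above the control mean for Ccl9 and Ccl6 and up to 1.07 above it for Ccl4. The same mouse was the highest control for 31.7% of all genes and 42.0% of those above the median gene, and its macrophage markers averaged 9.21, against 8.29 to 8.61 in the other controls. As a description over all 8 arrays, with the group means removed, Pearson's r between Ccl3 and Ccl4 was 0.71, and 0.0084 without control mouse 3. For Ccl9 and Ccl6 it was 0.84, and 0.57 without that mouse. These values pool both groups, whereas r between Ccl3 and Ccl4 was 0.99 in control mice and -0.72 in anti-LIF mice. Over control mice 1, 2 and 4, Ccl3, Ccl4 and Ccl9 still rose in that order, and Ccl5, Ccl6 and Ccr1 did not. The pooled values therefore do not show what the control mice share without mouse 3. No anti-LIF mouse was the highest or the lowest of its group for all 6 genes. Ccl5 was highest in mouse 6 and Ccl9 lowest there, Ccl4 was highest in mouse 8, and Ccr1 was lowest in mouse 5. Without control mouse 3 the log2 differences of Ccl3, Ccl9 and Ccl6 were -2.25, -1.16 and -0.78 (adjusted p = 3.7e-04, 0.0082 and 0.0090), and these 3 genes remained called.

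The genes whose pattern was most like that of Ccl3, by the correlation within groups among 10220 named genes above the median level, were Icosl (r = 0.98), Rtf2 (r = 0.98) and Csf2rb2 (r = 0.97). Icosl encodes a costimulatory ligand and Csf2rb2 a cytokine receptor subunit of mouse myeloid cells. Those most like Ccl5 were Zfp598 (r = 0.99), H2ac20 (r = 0.97) and Pcna (r = 0.97). Without control mouse 3 the values fell to 0.91, 0.90 and 0.86 for Ccl3 and to 0.98, 0.95 and 0.96 for Ccl5. These are correlations over 8 arrays, the best of many candidates, and describe only these arrays.

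Markers of macrophages, the cells for which most members are known, were lower in the same arrays. Of 9 measured macrophage genes, 7 were lower and none was higher. The largest falls were in Cd14, with a log2 difference of -1.58, and Cd68, with -1.41 (adjusted p = 0.0084 and 0.0028 from limma). The 2 not called, C1qa and Csf1r, had -0.52 and -0.33 (adjusted p = 0.16 and 0.38). None of the 9 lay below the median gene, and 20.6% of the genes above it were called lower, against 11% of all genes. The mean log2 level of the 9 markers was 7.57 to 7.89 in anti-LIF mice, against 8.29 to 9.21 in control mice, a difference of -0.90. Taken in each array relative to this mean, Ccl3 differed by -1.64 and Ccl9 by -0.46 (exact permutation p = 0.0286 each, groups not overlapping). Ccl6, Ccl4 and Ccr1 differed by -0.08, -0.03 and 0.03 (exact permutation p = 0.314, 0.971 and 0.943). Ccl5 was 1.29 higher relative to the markers (exact permutation p = 0.0286). Relative to Itgam instead, Ccl3 differed by -2.36, Ccl9 by -1.18, Ccl6 by -0.80, Ccl4 by -0.75 and Ccr1 by -0.69 (exact permutation p = 0.0286 for each except Ccl4, 0.0857), and Ccl5 was at 0.57 (exact permutation p = 0.143). Both scalings were chosen after the values had been seen, and the part of macrophage number or macrophage RNA in the members' changes was not tested.

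**Figure D4:**
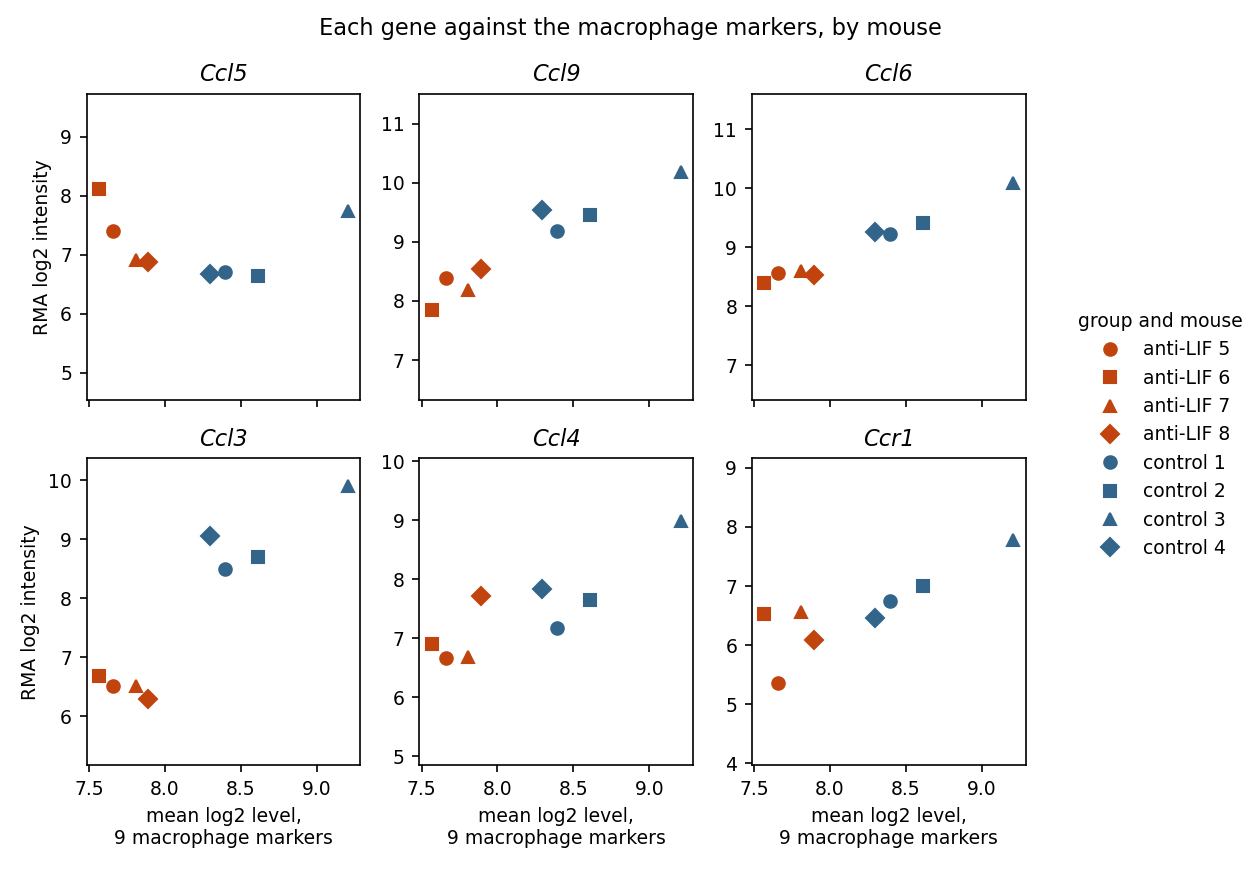
RMA log2 intensity of each of the 6 genes (vertical axes, each 5.2 units long) against the mean log2 level of 9 macrophage markers in the same array (horizontal axis), with a point for each of 4 anti-LIF and 4 control mice. Relative to the markers, the anti-LIF points differ from the controls by -0.08 for Ccl6, -1.64 for Ccl3 and 1.29 for Ccl5.

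Other cell types that make or bind these chemokines gave the following counts. Of 6 monocyte markers 1 rose, Ly6c2, and 1 fell, Vcan. Of 12 neutrophil markers 2 fell, S100a8 and Mmp8, with 7 of the 12 below the median gene. None of 4 eosinophil and none of 6 platelet markers passed the limma test, and 1 and 0 of them had an unadjusted p under 0.05. Of 7 mast cell and basophil markers 1 rose, Cpa3, and 6 of the 7 lay below the median gene, and of 8 dendritic cell markers 1 rose, Zbtb46. Of 11 tumor and mesothelial markers 3 rose and 2 fell, and none lay below the median gene. Muc16 rose by 1.88 on the log2 scale (adjusted p = 0.0027 from limma), and Krt18 had a log2 difference of -0.69 (adjusted p = 0.011). The mean log2 level of the 11 markers was 8.49 to 8.76 in anti-LIF mice, against 8.17 to 8.69 in control mice. The part of these cells in the members' values was not tested.

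Of the other receptors that bind the ligands, 5 were analysed and none passed the limma test, while 2 were higher at an unadjusted p under 0.05. Ccr3, the eosinophil receptor for CCL5, was at 3.79 ± 0.52 in anti-LIF mice and 3.19 ± 0.10 in control mice (SD, n = 4 each, adjusted p = 0.11 from limma). Gpr75, described as a further receptor of CCL5, was at 5.57 ± 0.18 in anti-LIF mice and 5.06 ± 0.37 in control mice (adjusted p = 0.104). The anti-LIF mice lay above all control mice for both genes. The atypical receptor genes Ackr2 and Ackr1, whose products take up or bind chemokines without G protein signaling, had log2 differences of 0.11 and 0.12, and Ccr1l1, a mouse gene related to Ccr1, of -0.37 (adjusted p = 0.67, 0.64 and 0.35). Of these 5 genes, 4 lay below the median gene, where no background level could be set, so low levels cannot be told from background.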

How the data were processed

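The arrays (Affymetrix Mouse Gene 2.1 ST) measured RNA of CD11b+ cells from 4 anti-LIF and 4 control mice. The deposited values are log2 intensities that the authors obtained by RMA (by Progenika), with R 3.1.2 named in the submitters' processing notes. RMA was run with its software and library files not given in the sources used here. RMA includes quantile normalization, which can compress large differences. The value table covers 41345 features, of which 23521 with 1 gene symbol were averaged per symbol to 22180 genes. The log2 scale and the absence of centring were taken from the methods and from array medians of 4.55 to 4.65 over genes.

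Genes were compared with limma 3.58.1 (lmFit, eBayes) in R 4.3.3, with Benjamini-Hochberg adjustment over all genes, a threshold of 0.1 and no filter on low values. The methods name paired samples without naming the pairs, so none were used. Single values also went through an exact permutation test, two-sided, which enumerates 70 ways to split the 8 arrays. The fit was tested on simulated data. Groups came from the sample labels. The members, lists and motifs were chosen with earlier results of these data known, so counts over them are descriptions. Lists held the MCP and eotaxin genes with Ccl1, other receptors, receptor signaling, early inflammatory genes and markers of 9 cell types. Named genes were the members, the first 2 of these lists, called neighbors and called members of the other lists. E230016K23Rik and Wfdc17 were named after their values were seen. Alternatives were leaving out each array, an adjusted p under 0.05, array weights, trend and robust settings, median centring, repeated quantile normalization, genes above the median level, the highest-mean feature and features taken singly. Plots used matplotlib 3.10.9 in Python 3.11.15. Precision is limited by how many arrays there were, and the standard error of a log2 difference had a median of 0.156.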

Additional observations from a re-analysis of the deposited data

Results flagged for a closer look

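The Ccl5 level of control mouse 3 stood apart from the other control mice. It was 7.74, against 6.63 to 6.71 in control mice 1, 2 and 4, and the gap made up 0.934 of the range of the group, above the critical value of Dixon's test for 4 samples. The 6 genes in the 2 groups gave 12 such checks, of which 1 was past the critical value, and chance gives about 1 in 20. The anti-LIF mice were at 6.89 to 8.11. Without control mouse 3 the log2 difference of Ccl5 was 0.66 (adjusted p = 0.17 from limma), against 0.39 with it.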

How the results depend on the processing

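Ccl3 and Ccl9 kept their direction and their call under all 18 alternatives run for each, and Ccl6 under 17 of 18. The exception was its value relative to the macrophage markers, -0.079 (exact permutation p = 0.314). Each member had 1 feature, so several alternatives could not change its log2 difference and bore only on its call. These were the choice of feature, the set of genes, the trend and robust settings and the stricter threshold. Values relative to the markers or to Itgam were judged by an exact permutation p under 0.05 instead. With arrays left out one at a time, the log2 difference ran from -2.71 to -2.25 for Ccl3, from -1.49 to -1.16 for Ccl9, from -1.07 to -0.78 for Ccl6, from -1.17 to -0.56 for Ccl4, from -1.04 to -0.60 for Ccr1 and from 0.13 to 0.66 for Ccl5. Ccl4 and Ccr1 passed the test among genes above the median level (-0.92, adjusted p = 0.072, and -0.86, adjusted p = 0.060) and with each array centred on its median (-0.99, adjusted p = 0.088, and -0.93, adjusted p = 0.070), so that 5 members were lower under each of these settings, against 3. Ccr1 also passed with the feature of the highest mean (-0.86, adjusted p = 0.0999). Relative to the macrophage markers Ccr1 changed sign, to 0.034 (exact permutation p = 0.943), and Ccl5 was at 1.29 (exact permutation p = 0.0286). Relative to Itgam, Ccr1 was at -0.69 (exact permutation p = 0.0286). For these changes the cause was not tested. Leaving out 1 array gave 3 or 4 lower members, and the Ccl3 and Ccl5 pair ran from -3.07 to -2.73.

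Over all genes 2448 were lower and 1284 higher, with 34.4% of calls higher. The split was 1454 and 1326 (47.7% higher) with quantile normalization again and 3215 and 884 (21.6% higher) with centred arrays, and 674 were higher at an adjusted p under 0.05. Leaving out control mouse 2 or 3 or anti-LIF mouse 7 gave 844, 802 and 840 higher genes. No paired analysis was possible because the 2 groups share no mouse number in the labels. The arrays gave no background level, so low signals have no lower bound.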

Other observations

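Early inflammatory genes that activated macrophages turn on together with Ccl3 and Ccl4 were lower in part. Of 13 such genes, 6 fell, none rose and 7 did not pass the test, with a median log2 difference of -0.73. Only 2 of the 13 lay below the median gene. Among genes above it 20.6% were called lower, against 11% of all genes. The neutrophil attractant genes Cxcl2 and Cxcl3 fell by 2.38 and 2.25 on the log2 scale (adjusted p = 0.0030 and 0.019 from limma), and Ptgs2, which encodes the prostaglandin synthase COX-2, fell by 1.51 (adjusted p = 0.011). Their mean log2 level was 6.18 to 6.78 in anti-LIF mice, highest in mouse 6, against 6.77 to 7.76 in control mice.

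Of 18 measured genes of chemokine receptor signaling, 6 fell, none rose and 12 did not pass the test, with a median log2 difference of -0.34. Rgs1, which encodes a protein that limits G protein signaling, was at 7.02 in anti-LIF mice and 8.14 in control mice, a log2 difference of -1.13 (adjusted p = 0.017 from limma). Pik3r5, a regulatory subunit gene of the PI3 kinase used by chemokine receptors, and the receptor kinase gene Grk3 had log2 differences of -0.66 and -0.65 (adjusted p = 0.093 and 0.050). The lists were written with earlier results of these data known. Of all genes 11% were lower, and of the genes above the median gene 20.6%. Only 1 of the 18 signaling genes lay below the median gene.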
